A study of Homo sapiens with 30 samples.

Results

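VWF, TIE1, TEK, PECAM1, CDH5, KDR, FLT1 and ENG are genes widely used to recognise the endothelial cells that line blood vessels. Their RNA levels are described here in U2OS, a human osteosarcoma (bone tumour) line that is not of endothelial origin. The members were taken from the deposited count table by gene symbol. Of the 8 genes listed, 7 had a row among the 57373 genes of the table, and PECAM1 was not analysed here. Of these 7, 6 passed the filter on low counts that left 18485 genes for testing, and FLT1 did not.

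The study compared cells expressing a transcription factor, FOXP2, in a wild type and a mutant form, with and without activation of Wnt signalling. The 6 groups of 5 biological replicates were mock-transfected cells (mock), cells overexpressing wild type FOXP2 from a plasmid (WT FOXP2), cells overexpressing FOXP2 that lacks residues 264 to 272 (dhelix FOXP2), cells given CHIR 99021 (CHIR), and cells given CHIR 99021 and either form of FOXP2 (WT FOXP2 + CHIR and dhelix FOXP2 + CHIR). CHIR 99021, an inhibitor of the kinase GSK3, was used at 5 µM from 72 h before transfection, and 500 ng of FOXP2 plasmid was left on the cells for 48 h. All libraries came from this single line, and the labels do not say whether the mock cells received an empty plasmid or whether the CHIR cells went through a mock transfection. They also do not give the share of cells that took up the plasmid, so a change in a few cells and a smaller change in all cells cannot be told apart, and neither can fewer cells expressing a gene and less RNA per cell.

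Endothelial cells receive growth signals through 2 pairs of receptor tyrosine kinases. VEGF ligands act through FLT1 (VEGFR1) and KDR (VEGFR2), and angiopoietins act through TEK (Tie2), with TIE1 as its partner without a well-established ligand of its own. ENG (endoglin) is a co-receptor for BMP and TGF-beta ligands, CDH5 (VE-cadherin) holds neighbouring endothelial cells together, and VWF (von Willebrand factor) is a secreted glycoprotein that binds platelets. FOXP2 is a forkhead transcription factor, and beta-catenin, which CHIR 99021 stabilises, acts with TCF/LEF factors.

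The 250 bases before the annotated transcription start are shown for TIE1 and ENG, the 2 members with the largest log2 rises with FOXP2 alone among the 6 tested, and for KDR, which fell most. They come from RefSeq on GRCh38.p14, in which 5 of the 8 genes had an entry (TIE1, TEK, KDR, FLT1 and ENG). The stretches lie at chr1:43300732-43300981 on the plus strand for TIE1, chr9:127854659-127854908 on the minus strand for ENG and chr4:55125596-55125845 on the minus strand for KDR, and each is written 5′ to 3′ toward the gene. Capitals mark GGAA or its reverse complement TTCC, the core bound by ETS factors, which are regulators of endothelial genes. This core was chosen for display after expression values had been seen.
TIE1: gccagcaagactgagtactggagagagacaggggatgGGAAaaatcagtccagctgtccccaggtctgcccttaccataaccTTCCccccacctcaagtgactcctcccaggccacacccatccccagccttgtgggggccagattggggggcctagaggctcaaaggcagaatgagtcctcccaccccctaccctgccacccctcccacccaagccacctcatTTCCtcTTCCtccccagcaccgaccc
ENG: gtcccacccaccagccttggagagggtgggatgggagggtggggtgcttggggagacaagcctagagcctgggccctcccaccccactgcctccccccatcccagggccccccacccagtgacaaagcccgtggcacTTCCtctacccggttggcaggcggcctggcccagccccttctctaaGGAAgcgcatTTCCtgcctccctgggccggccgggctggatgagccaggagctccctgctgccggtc
KDR: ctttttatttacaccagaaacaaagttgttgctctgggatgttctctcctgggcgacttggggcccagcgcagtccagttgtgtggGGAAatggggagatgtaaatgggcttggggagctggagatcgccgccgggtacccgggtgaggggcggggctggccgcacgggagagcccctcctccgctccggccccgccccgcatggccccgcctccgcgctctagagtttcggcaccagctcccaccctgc
The core occurred 4 times in the TIE1 stretch, 3 times in the ENG stretch and 1 time in the KDR stretch. In the stretches not shown it occurred 3 and 6 times at the first and second TEK start and 4 times at FLT1. TEK was called lower than mock with both FOXP2 forms, and a link between core number and change was not tested. It is common, being present in 92.7% of the 35116 promoters of the table, with a median of 3 per promoter. Both strands of the longer window that also holds the 50 bases after the start were searched for 5 longer motifs. The forkhead motifs GTAAACA and TATTTAT occurred in 3.42% and 4.93% of all promoters, the TCF/LEF motif CTTTGAT in 2.62%, and the ETS motifs CAGGAAG and ACCGGAAG in 12.7% and 2.17%. None of these 5 strings was in the windows of TIE1, KDR, FLT1 or ENG, and GTAAACA was in the window of the second TEK start, 25 bases after that start. A missing match says only that these letters are not in this window.

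Library totals ranged from 15755842 to 29466652 counts. FOXP2 itself averaged 0.898 CPM (counts on a common library size, scaled by edgeR's TMM factors) in mock cells and 0.504 CPM in CHIR cells, against 7076 CPM in WT FOXP2, 5319 CPM in dhelix FOXP2, 15299 CPM in WT FOXP2 + CHIR and 13481 CPM in dhelix FOXP2 + CHIR cells. The amount of FOXP2 RNA therefore differed along with the form of FOXP2 and with CHIR, and its part in the results below was not tested. AXIN2, a direct target of Wnt signalling, averaged 21.0 CPM in mock and 145 CPM in CHIR cells. It averaged 8.11 CPM in WT FOXP2, 9.99 in dhelix FOXP2, 49.2 in WT FOXP2 + CHIR and 62.4 in dhelix FOXP2 + CHIR cells. LEF1 averaged 39.7 CPM in mock, 125 in CHIR, 81.7 in WT FOXP2 + CHIR and 86.3 in dhelix FOXP2 + CHIR cells. The CHIR-treated groups thus differed in the level of these genes, and the part of this in the results below was not tested. CHIR replicate 1, dhelix FOXP2 replicate 5 and WT FOXP2 + CHIR replicate 4 were taken to stand apart from their groups in counts over all genes. No rule for this choice was recorded. The library totals of CHIR replicate 1 and WT FOXP2 + CHIR replicate 4 lay within the ranges of their groups. Results that change without these 3 libraries are named below.

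Calls were made at an adjusted p (edgeR quasi-likelihood test, Benjamini-Hochberg over all 18485 genes) under 0.05. Most genes of these cells changed in most comparisons, so each count of members stands beside the share of all tested genes called. The filter on low counts kept a gene with enough counts in as few as 5 libraries of any group. Genes low in mock cells, as TIE1 and CDH5 were, were thus tested only because other groups held more. This favours calls above mock among the members, in the lists below and over all genes. CHIR against mock called 0 members higher and 5 lower (VWF, TEK, CDH5, KDR and ENG) of the 6 tested, where 38.8% of all genes were called higher and 35.3% lower. WT FOXP2 against mock called 3 higher (TIE1, ENG, CDH5) and 3 lower (VWF, TEK, KDR), where 39.9% of all genes were called higher and 41.6% lower. dhelix FOXP2 against mock called 4 higher (VWF in addition) and 2 lower (TEK, KDR), where 39.6% of all genes were called higher and 40.9% lower. The medians of the 6 log2 changes were -0.77 for CHIR, 0.055 for WT FOXP2 and 1.20 for dhelix FOXP2. Over all genes they were 0.023, -0.021 and -0.015. These 3 comparisons share the mock libraries.

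In CHIR-treated cells, WT FOXP2 called 4 members higher (VWF, TIE1, TEK, ENG) and 0 lower than CHIR alone, where 38.2% of all genes were called higher and 40.2% lower. dhelix FOXP2 + CHIR called 5 higher, CDH5 in addition, and 0 lower than CHIR alone, where 37.0% of all genes were called higher and 38.9% lower. The medians of the 6 log2 changes were 1.32 and 1.49, beside medians of -0.03 and -0.03 over all genes. Both comparisons share the CHIR libraries. The helix deletion called 3 members higher (VWF, TIE1, CDH5) and 0 lower than WT FOXP2, where 16.9% of all genes were called higher and 18.7% lower. With CHIR it called 2 higher (VWF, CDH5) and 0 lower, where 16.6% of all genes were called higher and 13.9% lower. CHIR in WT FOXP2 cells called 2 members higher (VWF, KDR) and 4 lower (TIE1, TEK, CDH5, ENG), where 34.8% of all genes were called higher and 30.2% lower. In dhelix FOXP2 cells it called the same 2 higher and 3 lower (TIE1, CDH5, ENG), where 34.1% of all genes were called higher and 29.1% lower. Member medians were 0.34 and 0.30 for the helix deletion without and with CHIR, beside 0.0025 and 0.014 over all genes. For CHIR they were -0.80 in WT and -0.71 in dhelix FOXP2 cells, beside 0.035 and 0.039.

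**Figure D1:**
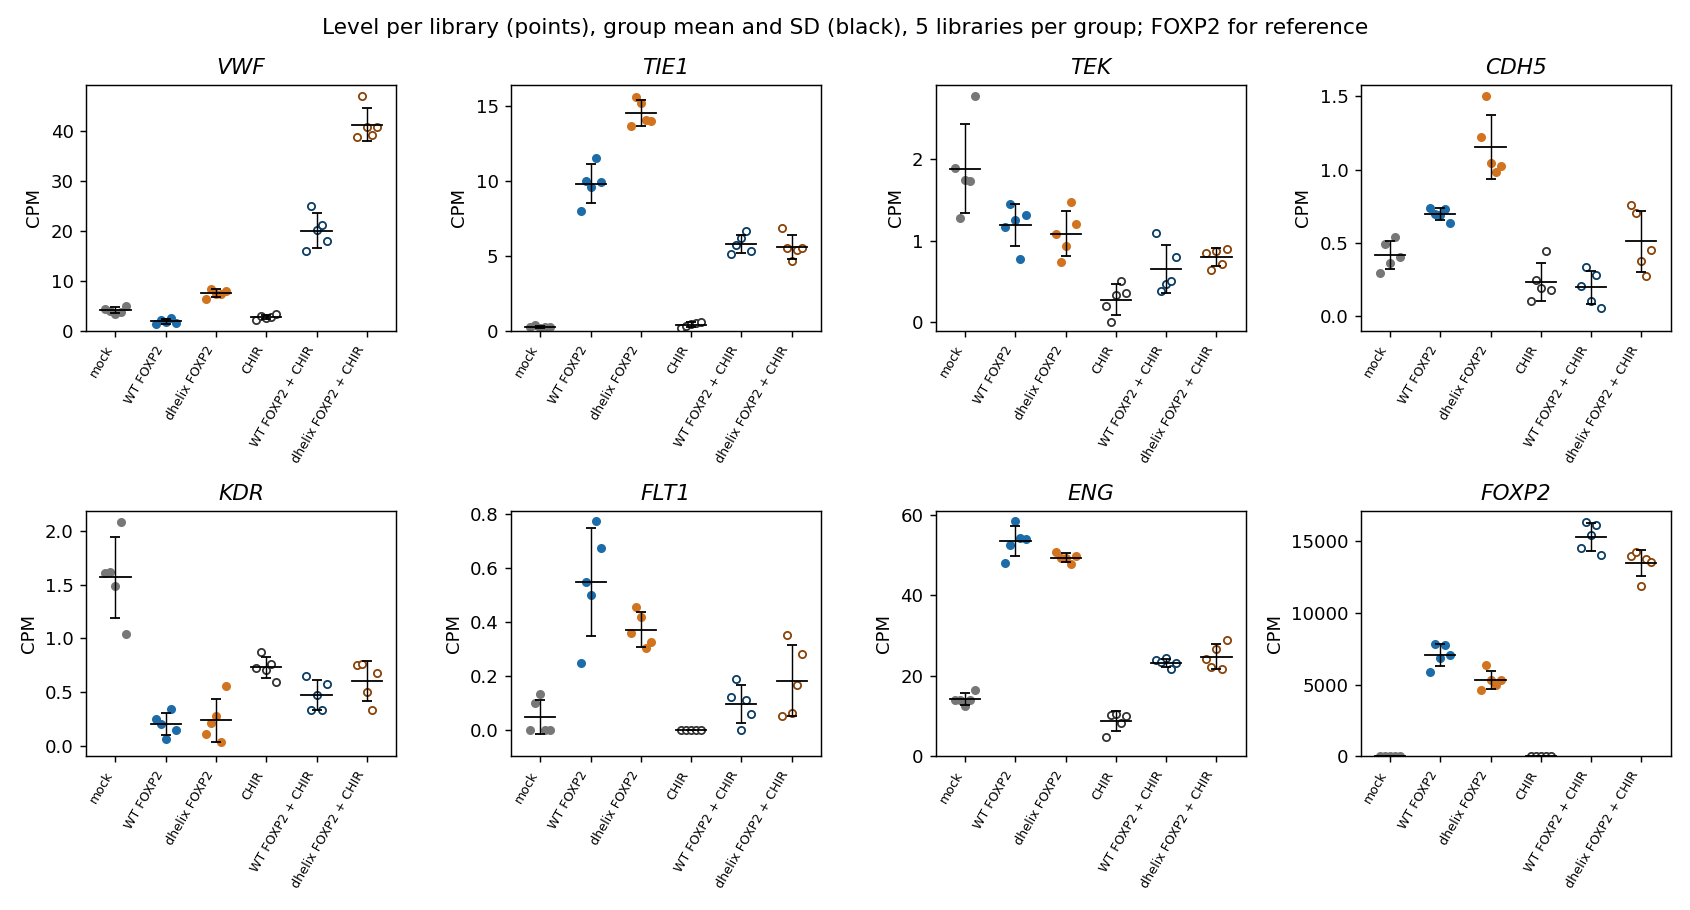
Level of the 7 measured genes, and of FOXP2, in CPM in each of the 30 libraries (points; open points are CHIR-treated), with the group mean and SD in black (n = 5). TIE1 and ENG were higher in all 4 FOXP2 groups than in the group without FOXP2 at the same CHIR treatment, and VWF was highest in the groups with FOXP2 and CHIR.

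TIE1, the partner receptor of TEK, went from 4 to 8 counts per mock library to 130 or more per library with FOXP2 alone. In mock cells it was at 0.243, 0.392, 0.198, 0.238 and 0.231 CPM in replicates 1 to 5. In WT FOXP2 cells it was at 7.99, 10.03, 9.63, 11.6 and 9.97 CPM. In dhelix FOXP2 cells it was at 13.7, 15.7, 15.2, 14.1 and 14.0 CPM. All 10 FOXP2 libraries thus lay far above all 5 mock libraries, and the dhelix libraries lay above the WT libraries with no overlap. The ratio of group means was 37.8 for WT FOXP2 against mock, a log2 fold change of 5.24 (SE 0.17, adjusted p = 1.2e-25, edgeR). For dhelix FOXP2 against mock the ratio was 55.8 (log2 5.79, SE 0.16, adjusted p = 5.7e-28), and dhelix exceeded WT FOXP2 by 0.55 on the log2 scale (SE 0.08, adjusted p = 2.5e-06).

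With CHIR, TIE1 remained high in FOXP2 cells but lower than without CHIR. CHIR libraries were at 0.154, 0.311, 0.472, 0.505 and 0.595 CPM. WT FOXP2 + CHIR libraries were at 5.11, 5.74, 6.17, 6.63 and 5.30 CPM, and dhelix FOXP2 + CHIR libraries at 6.84, 5.51, 4.65, 5.40 and 5.51 CPM. Against CHIR alone TIE1 rose by 3.82 (SE 0.18, adjusted p = 2.5e-20) with WT and 3.78 (SE 0.19, adjusted p = 7.8e-20) with dhelix FOXP2. The libraries of the 2 FOXP2 forms overlapped in this medium, and their difference of -0.04 (SE 0.11, adjusted p = 0.84) was not called. CHIR lowered TIE1 by a log2 fold change of -0.78 (SE 0.10, adjusted p = 8.8e-09) in WT FOXP2 cells and of -1.37 (SE 0.09, adjusted p = 2.3e-15) in dhelix FOXP2 cells. In cells without FOXP2 the CHIR difference of 0.64 (SE 0.36, adjusted p = 0.10) rested on 3 to 10 counts per library and was not called. Without CHIR replicate 1 it was 0.83 with an adjusted p of 0.036, and without all 3 libraries that stood apart 0.83 with an adjusted p of 0.041.

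TEK, the angiopoietin receptor, behaved differently from TIE1 and was highest in mock cells. Its mock libraries were at 1.90, 1.27, 1.75, 1.73 and 2.77 CPM and its CHIR libraries at 0.205, 0, 0.330, 0.505 and 0.357 CPM. The 2 groups did not overlap, and the CHIR libraries held only 0 to 8 counts each. The ratio of mock to CHIR means was 6.73 (log2 -2.71, SE 0.32, adjusted p = 1.6e-09, edgeR), and CHIR gave the largest fall of TEK among the comparisons made.

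WT FOXP2 libraries held TEK at 1.17, 1.45, 1.25, 0.774 and 1.31 CPM, and dhelix FOXP2 libraries at 1.08, 0.736, 0.938, 1.48 and 1.21 CPM. Both overlapped the mock group only at its lowest library. The log2 changes against mock were -0.65 for WT FOXP2 (SE 0.23, adjusted p = 0.010) and -0.78 for dhelix FOXP2 (SE 0.22, adjusted p = 0.0016). Without mock replicate 5, the highest library, the WT change was -0.49 with an adjusted p of 0.056.

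The direction of TEK was opposite in CHIR-treated cells. WT FOXP2 + CHIR libraries were at 1.10, 0.379, 0.474, 0.502 and 0.798 CPM and dhelix FOXP2 + CHIR libraries at 0.856, 0.645, 0.869, 0.717 and 0.900 CPM. Against CHIR alone these were log2 rises of 1.23 (SE 0.40, adjusted p = 0.0052) and 1.49 (SE 0.39, adjusted p = 0.00082), and the dhelix libraries did not overlap the CHIR libraries. The 2 FOXP2 forms did not differ beyond their spread in either medium, at -0.14 (SE 0.24) without and 0.26 (SE 0.31) with CHIR.

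KDR, the main signalling receptor for VEGF in endothelium, fell with FOXP2 and with CHIR. Mock libraries were at 1.60, 1.62, 1.48, 2.09 and 1.04 CPM. WT FOXP2 libraries were at 0.246, 0.200, 0.0625, 0.344 and 0.150 CPM, or 1 to 8 counts, and dhelix FOXP2 libraries at 0.108, 0.210, 0.278, 0.0378 and 0.557 CPM, or 1 to 12 counts. No FOXP2 library reached the lowest mock library. The ratio of mock to WT FOXP2 means was 7.81 (log2 -2.89, SE 0.32, adjusted p = 1.7e-10, edgeR), and that of mock to dhelix FOXP2 means was 6.57 (log2 -2.75, SE 0.29, adjusted p = 5.8e-11).

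CHIR libraries held KDR at 0.719, 0.871, 0.707, 0.758 and 0.595 CPM, below every mock library (log2 -1.09, SE 0.25, adjusted p = 0.00017). WT FOXP2 + CHIR libraries were at 0.649, 0.332, 0.474, 0.334 and 0.570 CPM and dhelix FOXP2 + CHIR libraries at 0.755, 0.762, 0.496, 0.331 and 0.675 CPM. These overlapped the CHIR group, and the changes of -0.60 (SE 0.32, adjusted p = 0.083) and -0.26 (SE 0.31, adjusted p = 0.45) were not called. Fitted on the compared groups alone, the first was -0.57 with an adjusted p of 0.049. In FOXP2 cells CHIR went with more KDR, by 1.20 (SE 0.41, adjusted p = 0.010) with WT and 1.40 (SE 0.36, adjusted p = 0.0010) with dhelix FOXP2. The dhelix to WT FOXP2 differences of 0.14 (SE 0.45, adjusted p = 0.85) without and 0.34 (SE 0.33, adjusted p = 0.47) with CHIR were not called. All 4 FOXP2 groups held at most 16 KDR counts per library, which limits the precision of these changes.

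FLT1, the other VEGF receptor, was near the detection limit and did not enter the fit across all genes. Its counts in replicates 1 to 5 were 0, 2, 4, 0 and 0 in mock cells and 0 in each of the 5 CHIR libraries, where a count of 0 allows up to 3 counts in a library. WT FOXP2 libraries held 4, 11, 8, 18 and 18 counts and dhelix FOXP2 libraries 10, 13, 12, 8 and 7. WT FOXP2 + CHIR libraries held 3, 4, 0, 2 and 1 counts and dhelix FOXP2 + CHIR libraries 1, 6, 1, 3 and 5. On CPM, the FOXP2 libraries without CHIR did not overlap the mock libraries.

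The ratio of pooled FLT1 rates was 10.1 for WT FOXP2 against mock (95% interval 4.39 to 28.7, counting error only) and 6.60 for dhelix FOXP2 (2.83 to 18.8). Exact two-sided permutation tests on log2 CPM with about 2 counts added gave p = 0.0079 for both. This is the smallest that 5 against 5 libraries allow, and the adjusted p was 0.018 over 9 pairs of groups. dhelix FOXP2 + CHIR exceeded CHIR alone with the same exact p (adjusted 0.018), and WT FOXP2 + CHIR did so with an exact p of 0.048 (adjusted 0.071). CHIR lowered FLT1 in WT FOXP2 cells to a pooled ratio of 0.173 (0.0789 to 0.341, exact permutation p = 0.0079, adjusted 0.018). In dhelix FOXP2 cells the ratio with CHIR was 0.479 (0.255 to 0.855, exact permutation p = 0.032, adjusted 0.057), which did not pass. The 2 forms gave a dhelix to WT ratio of 0.651 without CHIR (exact permutation p = 0.14, adjusted 0.18) and 1.80 with CHIR (exact permutation p = 0.28, adjusted 0.31), and CHIR against mock gave an exact permutation p of 0.44, none of which passed. In the FOXP2 libraries without CHIR, FLT1 was thus higher and KDR lower than in mock.

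ENG, the BMP and TGF-beta co-receptor, had the highest mean CPM of the members in every group but dhelix FOXP2 + CHIR, where VWF was higher (41.2 against 24.7 CPM), and rose with FOXP2 in both media. Mock libraries were at 13.9, 14.1, 12.6, 14.0 and 16.5 CPM. WT FOXP2 libraries were at 48.1, 52.6, 58.3, 54.3 and 54.0 CPM and dhelix FOXP2 libraries at 50.8, 49.2, 49.2, 47.7 and 49.8 CPM. Both FOXP2 groups lay above all mock libraries and overlapped each other. The ratios to mock were 3.76 (log2 1.92, SE 0.10, adjusted p = 5.6e-19, edgeR) and 3.47 (log2 1.81, SE 0.10, adjusted p = 2.9e-18). The difference between the forms was -0.12 (SE 0.08, adjusted p = 0.31), and -0.11 with an adjusted p of 0.019 when fitted on those 2 groups alone. With CHIR it was 0.09 (SE 0.10, adjusted p = 0.55).

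CHIR libraries held ENG at 4.78, 10.2, 10.6, 8.40 and 10.1 CPM, all below mock, with replicate 1 lowest. WT FOXP2 + CHIR libraries were at 23.9, 23.3, 24.4, 21.7 and 23.1 CPM and dhelix FOXP2 + CHIR libraries at 24.3, 22.2, 26.7, 21.6 and 28.9 CPM. All of these lay between the mock libraries and the FOXP2 libraries without CHIR. CHIR lowered ENG in each background, by log2 changes of -0.68 in cells without FOXP2 (SE 0.12, adjusted p = 4.2e-06), -1.20 with WT FOXP2 (SE 0.09, adjusted p = 1.9e-13) and -0.998 with dhelix FOXP2 (SE 0.09, adjusted p = 1.7e-11). Against CHIR alone, ENG rose by 1.41 (SE 0.11, adjusted p = 2.3e-13) with WT and 1.49 (SE 0.11, adjusted p = 7.4e-14) with dhelix FOXP2.

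A gene annotated on the opposite strand of ENG, AL162586.1, had its lower levels in the FOXP2 groups, where ENG was higher. It averaged 4.68 ± 0.254 CPM in mock (SD, n = 5), 3.19 ± 0.389 in CHIR, 1.02 ± 0.142 in WT FOXP2 and 1.08 ± 0.274 in dhelix FOXP2 cells. Its counts came to 33.7% of those of ENG in mock and 36.1% in CHIR cells, and to 1.9% to 5.37% in the 4 FOXP2 groups. The libraries were made with a kit that keeps the strand, and the strand setting of the counting is not given in the sources used here, so reads could be split between the 2 genes. VWFP1, a pseudogene nearly identical to part of VWF, held 27 counts in all 30 libraries, and the antisense gene at KDR, AC111194.2, held 6.

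CDH5, the endothelial cadherin, was low throughout and highest with dhelix FOXP2. Mock libraries held 6 to 11 counts each (mean 0.417 ± 0.0978 CPM, SD, n = 5), WT FOXP2 libraries 11 to 17 (0.698 ± 0.0403 CPM) and dhelix FOXP2 libraries 22 to 43 (1.15 ± 0.217 CPM). The 3 groups did not overlap on CPM. The log2 changes were 0.76 for WT FOXP2 against mock (SE 0.27, adjusted p = 0.011, edgeR), 1.49 for dhelix FOXP2 against mock (SE 0.23, adjusted p = 4.3e-07) and 0.74 for dhelix against WT FOXP2 (SE 0.21, adjusted p = 0.0055).

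In CHIR cells CDH5 held 2 to 7 counts per library (0.232 ± 0.128 CPM), in WT FOXP2 + CHIR cells 1 to 7 (0.195 ± 0.115 CPM) and in dhelix FOXP2 + CHIR cells 5 to 15 (0.511 ± 0.209 CPM). dhelix FOXP2 raised it in CHIR-treated cells, by 1.18 (SE 0.35, adjusted p = 0.0031) against CHIR alone and by 1.35 (SE 0.35, adjusted p = 0.0031) against WT FOXP2 + CHIR. WT FOXP2 gave -0.16 (SE 0.43, adjusted p = 0.75), which was not called. CHIR lowered CDH5, with log2 changes of -1.77 (SE 0.32, adjusted p = 1.0e-05) in WT FOXP2 cells and -1.16 (SE 0.23, adjusted p = 4.4e-05) in dhelix FOXP2 cells. The change in cells without FOXP2, -0.85 (SE 0.36, adjusted p = 0.034), was no longer called with DESeq2, with no filter on low counts, or without any 1 of mock replicates 2 and 4 and CHIR replicates 1, 3 and 5, with adjusted p-values of 0.056 to 0.099, and 0.10 without the 3 libraries that stood apart.

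VWF, the secreted platelet-binding protein, showed the largest departure of combined FOXP2 and CHIR from their separate changes among the 6 tested members. Mock libraries were at 4.42, 3.92, 3.27, 3.81 and 4.85 CPM. WT FOXP2 libraries were at 1.41, 2.04, 1.75, 2.58 and 1.61 CPM and dhelix FOXP2 libraries at 6.29, 8.37, 7.26, 7.38 and 7.99 CPM. Without CHIR, all WT FOXP2 libraries lay below and all dhelix libraries above the mock libraries. The log2 change was -1.07 for WT FOXP2 (SE 0.17, adjusted p = 6.7e-07, edgeR) and 0.90 for dhelix FOXP2 (SE 0.13, adjusted p = 7.9e-08), and the forms differed by 1.96 (SE 0.15, adjusted p = 1.0e-12), a ratio of 3.96.

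CHIR alone left VWF low, at 2.05, 2.92, 2.59, 2.65 and 3.33 CPM (log2 -0.57 against mock, SE 0.16, adjusted p = 0.0022). With FOXP2 and CHIR together it reached its highest levels, at 15.9, 25.0, 20.2, 21.2 and 17.8 CPM with WT FOXP2. With dhelix FOXP2 it was at 38.7, 46.9, 40.7, 39.1 and 40.7 CPM. Neither of these groups overlapped any other group. The ratios to CHIR alone were 7.39 for WT FOXP2 (log2 2.89, SE 0.13, adjusted p = 6.6e-21) and 15.2 for dhelix FOXP2 (log2 3.93, SE 0.12, adjusted p = 2.2e-25), and dhelix exceeded WT FOXP2 by a ratio of 2.06 (log2 1.04, SE 0.09, adjusted p = 5.0e-11). CHIR raised VWF by ratios of 10.7 in WT FOXP2 cells (log2 3.39, SE 0.13, adjusted p = 6.4e-22) and 5.53 in dhelix FOXP2 cells (log2 2.47, SE 0.10, adjusted p = 8.5e-22).

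**Figure D2:**
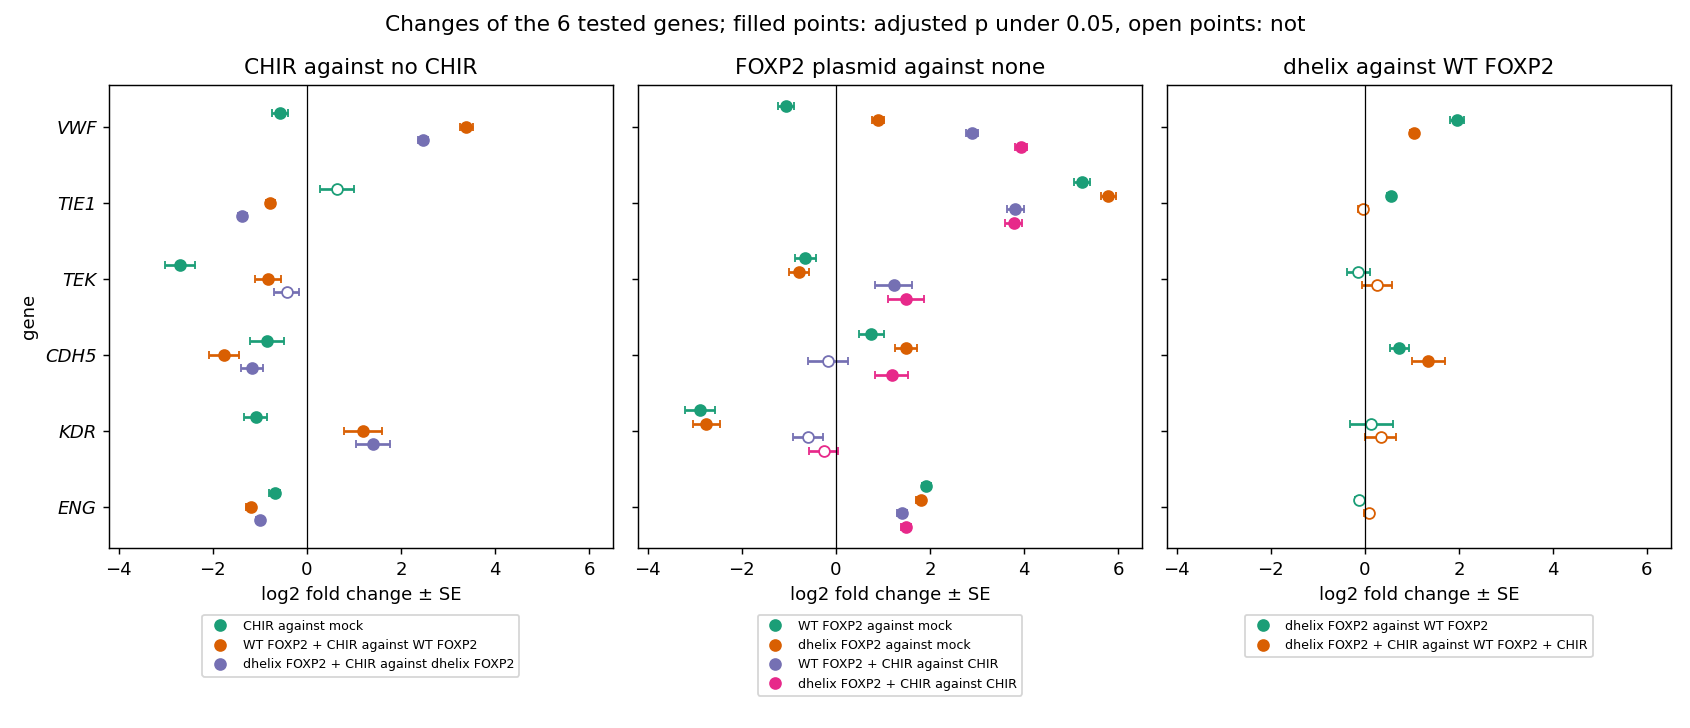
log2 fold changes (points) with SE (bars) of the 6 tested genes in 9 comparisons, grouped by what was varied. Filled points have an edgeR adjusted p under 0.05. VWF lies to the left of 0 for CHIR against mock and to the right for CHIR in both FOXP2 groups, while TIE1, CDH5 and ENG lie to the left for CHIR in both FOXP2 groups.

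Whether FOXP2 and CHIR acted independently on the log2 scale was tested by the difference between the FOXP2 change with CHIR and the FOXP2 change without it. For WT FOXP2 this difference called 5 of 6 members, where 65.6% of all genes were called. It was 3.96 for VWF (SE 0.22, adjusted p = 6.6e-18, edgeR), 2.29 for KDR (SE 0.48, adjusted p = 7.3e-05) and 1.88 for TEK (SE 0.46, adjusted p = 0.00048). It was negative for TIE1 at -1.42 (SE 0.37, adjusted p = 0.0011) and for ENG at -0.51 (SE 0.15, adjusted p = 0.0034), while that of CDH5, -0.92 (SE 0.51, adjusted p = 0.11), was not called. So the FOXP2 change of VWF turned from a fall to a rise, as did that of TEK, the fall of KDR shrank to a change that was not called, and the rises of TIE1 and ENG were smaller with CHIR. Without FOXP2, TIE1 held only 4 to 8 counts per mock and 3 to 10 per CHIR library, which limits the precision of its difference.

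For dhelix FOXP2 the same difference called 4 of 6 members, where 64.8% of all genes were called. It was 3.04 for VWF (SE 0.19, adjusted p = 3.3e-16), 2.49 for KDR (SE 0.44, adjusted p = 6.6e-06), 2.28 for TEK (SE 0.45, adjusted p = 3.1e-05) and -2.01 for TIE1 (SE 0.38, adjusted p = 1.6e-05). That of CDH5 was -0.31 (SE 0.46, adjusted p = 0.58) and that of ENG -0.31 (SE 0.15, adjusted p = 0.068). For ENG, without CHIR replicate 1, which had the lowest ENG level of its group, it was -0.48 with an adjusted p of 4.6e-05, and it was also called without mock replicate 5 (-0.37, adjusted p = 0.030), without dhelix FOXP2 + CHIR replicate 5 (-0.38, adjusted p = 0.028) and with no filter on low counts (-0.38, adjusted p = 0.00052). The ENG difference was also called without the 3 libraries that stood apart. The differences for WT and dhelix FOXP2 share the mock and CHIR libraries. The effect of the helix deletion itself differed with CHIR for 2 of 6 members, where 14.2% of all genes were called, namely VWF at -0.92 (SE 0.18, adjusted p = 0.00050) and TIE1 at -0.59 (SE 0.14, adjusted p = 0.0027). It was not called for CDH5 at 0.61 (SE 0.41, adjusted p = 0.36), TEK at 0.40 (SE 0.40, adjusted p = 0.57), KDR at 0.20 (SE 0.57, adjusted p = 0.87) or ENG at 0.20 (SE 0.13, adjusted p = 0.33).

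Levels of different genes were compared per kilobase of exon (union of the exons of the GENCODE v29 basic set). ENG was the most abundant member per kilobase in every group, from 2.59 ± 0.706 CPM per kb in CHIR cells to 15.7 ± 1.08 in WT FOXP2 cells (SD, n = 5). VWF ran from 0.213 ± 0.0514 in WT FOXP2 to 4.67 ± 0.373 CPM per kb in dhelix FOXP2 + CHIR cells, and TIE1 from 0.0654 ± 0.0190 in mock to 3.65 ± 0.216 in dhelix FOXP2 cells. TEK, CDH5 and KDR stayed below 1 CPM per kb in every group, TEK at most 0.392, KDR at most 0.259 and CDH5 at most 0.218. FLT1 was lowest in every group but WT FOXP2, where KDR was lower. Between the receptors of the angiopoietin pair, TEK exceeded TIE1 in mock cells (0.392 against 0.0654 CPM per kb) and TIE1 had the higher mean in the 5 other groups, CHIR cells without FOXP2 included (0.102 against 0.0582 CPM per kb). The CHIR means rest on 3 to 10 TIE1 and 0 to 8 TEK counts per library, so their order is uncertain.

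**Figure D3:**
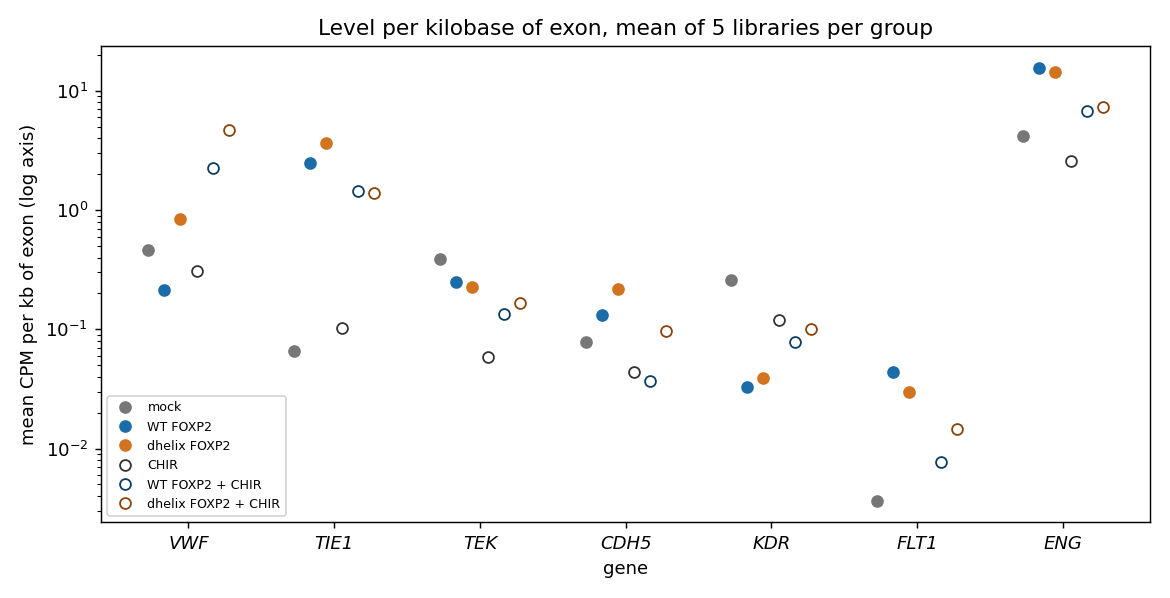
Mean level of each gene per kilobase of exon in the 6 groups (n = 5 libraries per point, log axis). ENG is highest in every group, TIE1 and VWF span the widest ranges among the tested genes, and FLT1 in CHIR cells has no point because all 5 libraries held 0 counts.

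In order of group means, VWF fell from dhelix FOXP2 + CHIR to WT FOXP2 + CHIR, dhelix FOXP2, mock, CHIR and WT FOXP2, with overlapping libraries between mock and CHIR and between CHIR and WT FOXP2. TIE1 fell from dhelix FOXP2 to WT FOXP2, WT FOXP2 + CHIR, dhelix FOXP2 + CHIR, CHIR and mock, with overlap between the third and the fourth and between the last pair. ENG fell from WT FOXP2 to dhelix FOXP2, dhelix FOXP2 + CHIR, WT FOXP2 + CHIR, mock and CHIR, with overlap within each pair of FOXP2 groups. KDR led in mock, which alone stood clear of its neighbour, and CDH5 led in dhelix FOXP2, which also stood clear. Neighbouring groups of TEK overlapped at every step of its order.

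The ligands and co-receptors of these receptors changed in both directions. Of 12 listed genes for VEGF and angiopoietin signalling (ligands, FLT4, neuropilins and PTPRB), 9 were tested, of which WT FOXP2 called 5 higher and 4 lower and CHIR called 3 higher and 6 lower than mock. Of all genes, 39.9% were called higher and 41.6% lower with WT FOXP2 and 38.8% higher and 35.3% lower with CHIR, so the WT FOXP2 counts of this list were near the background. The median log2 change was 0.14 for WT FOXP2, beside -0.02 over all genes, and -0.32 for CHIR, beside 0.02. ANGPT1, the activating ligand of TEK, fell from 3.68 CPM in mock to 0.850 with WT FOXP2 (log2 -2.11, SE 0.18, adjusted p = 1.4e-13, edgeR) and to 0.0883 with CHIR (log2 -5.27, SE 0.28, adjusted p = 7.6e-19). VEGFC, a ligand of FLT4 and KDR, rose from 5.34 to 24.9 CPM with WT FOXP2 (log2 2.21, SE 0.09, adjusted p = 1.1e-22).

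PGF, the placental growth factor that binds FLT1, had group means in the same order as VWF at its upper end, with 45.8 CPM in WT FOXP2 + CHIR and 55.1 CPM in dhelix FOXP2 + CHIR against 15.0 CPM in mock and 3.42 CPM in CHIR cells (log2 3.74, SE 0.07, and 4.01, SE 0.07, against CHIR alone). NRP1, a co-receptor of KDR, was abundant throughout at 187 to 665 CPM and highest with CHIR (log2 1.67 against mock, SE 0.05, adjusted p = 2.1e-27). NRP2, its relative, fell with WT FOXP2 (log2 -1.65, SE 0.18, adjusted p = 1.4e-10). PTPRB, a phosphatase that acts on TEK, rose with WT FOXP2 by 1.10 (SE 0.14, adjusted p = 4.9e-09) and with CHIR by 1.42 (SE 0.14, adjusted p = 1.1e-11).

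Genes of the BMP and TGF-beta pathway in which ENG takes part fell more often than they rose. Of 21 listed, 18 were tested, and WT FOXP2 called 2 higher and 15 lower than mock, dhelix FOXP2 4 higher and 14 lower, and CHIR 5 higher and 13 lower. The shares of all genes called were 39.9% higher and 41.6% lower for WT FOXP2, 39.6% and 40.9% for dhelix FOXP2 and 38.8% and 35.3% for CHIR. The median log2 change was -0.56 for WT FOXP2, -0.52 for dhelix FOXP2 and -0.45 for CHIR, beside -0.02, -0.02 and 0.02 over all genes. SMAD6, an inhibitory SMAD, fell from 18.5 CPM in mock to 1.06 with WT FOXP2 (log2 -4.15, SE 0.11, adjusted p = 2.5e-28) and 1.70 with CHIR (log2 -3.43, SE 0.11, adjusted p = 2.5e-26). TGFB2, a ligand, fell from 94.2 to 16.2 CPM with WT FOXP2 (log2 -2.55, SE 0.08, adjusted p = 1.5e-25). SMAD7, the other inhibitory SMAD, fell with WT FOXP2 (log2 -1.54, SE 0.06) and rose with CHIR (log2 0.54, SE 0.05). ID1, a target gene of BMP signalling, changed by -0.14 with WT FOXP2 (SE 0.05, adjusted p = 0.0071) and 0.31 with dhelix FOXP2 (SE 0.05, adjusted p = 2.8e-07), so the rise of ENG did not go with a rise of ID1 in WT FOXP2 cells.

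Among 33 other endothelial markers, 19 were tested, and WT FOXP2 called 13 higher and 5 lower than mock, where 39.9% of all genes were called higher and 41.6% lower, with a median log2 change of 1.26 beside -0.02 over all genes. dhelix FOXP2 likewise called 13 higher and 5 lower, where 39.6% of all genes were called higher and 40.9% lower (median 1.44, beside -0.02). CHIR called 8 higher and 8 lower, where 38.8% of all genes were called higher and 35.3% lower (median -0.13, beside 0.02). Markers near 0 in mock, such as APLN, were tested only through groups where they were higher, and those near 0 throughout were not tested. The FOXP2 counts and medians of this list therefore lean toward rises. ESM1, an endothelial proteoglycan gene, rose from 1.09 to 191 CPM with WT FOXP2 (log2 7.46, SE 0.15, adjusted p = 3.0e-29) and to 121 CPM with dhelix FOXP2. APLN, the ligand apelin, rose from 0.121 to 5.91 CPM (log2 5.52, SE 0.23) and ROBO4, an endothelial guidance receptor, from 1.03 to 19.9 CPM (log2 4.26, SE 0.12) with WT FOXP2. ICAM1, a leukocyte adhesion molecule, rose from 0.476 to 2.54 CPM (log2 2.40, SE 0.23). NOS3, the endothelial nitric oxide synthase, rose with WT FOXP2 by 2.54 (SE 0.17) and more with CHIR, from 0.691 to 14.6 CPM (log2 4.46, SE 0.14). CD34 fell from 12.9 CPM to 1.73 CPM with WT FOXP2 (log2 -2.87, SE 0.12) and to 1.61 CPM with CHIR (log2 -3.01, SE 0.13).

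Other markers of the same list were at or near 0 in all 30 libraries. Summed over these libraries, CLDN5 had 2 counts, PLVAP 13, EMCN 10, MMRN1 5, VCAM1 3, SELE 5, SELP 1 and CLEC14A 5. Several defining endothelial markers were thus not detected above this level, and the labels name no endothelial cells. Of 24 transcription factors known from endothelium 18 were tested, and WT FOXP2 called 11 higher and 4 lower than mock, where 39.9% of all genes were called higher and 41.6% lower (median log2 change 0.53, beside -0.02). KLF2, a flow-responsive factor, rose by 2.32 (SE 0.17), LMO2 by 1.33 (SE 0.29) and HEY1, a Notch target, by 1.33 (SE 0.12), while SOX18 fell (log2 -1.43, SE 0.16). dhelix against WT FOXP2 called 0 of these factors higher and 6 lower, where 16.9% of all genes were called higher and 18.7% lower (median -0.14, beside 0.0025).

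**Figure D4:**
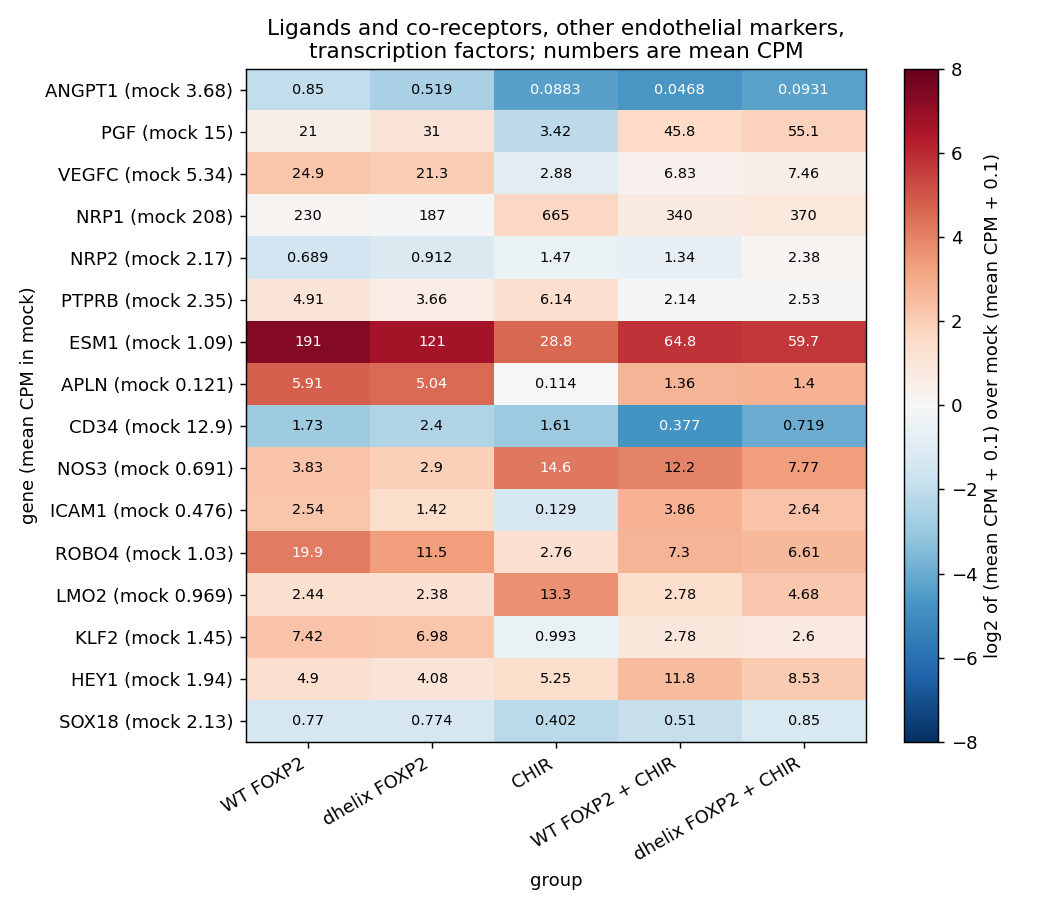
Mean CPM (numbers) of the named ligands and co-receptors, other endothelial markers and transcription factors, with mock beside the name, and color for the log2 of the mean CPM plus 0.1 over that of mock. ESM1 is the most changed gene shown, CD34, ANGPT1 and SOX18 are below mock in every other group, and PGF is lowest with CHIR alone.

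Markers of other cells were measured beside these results, and their counts for WT FOXP2 against mock stand beside 39.9% of all genes called higher and 41.6% lower. Of 19 blood and platelet markers 5 were tested, and WT FOXP2 called 2 higher and 2 lower than mock. ITGAM, a myeloid integrin, rose from 0.123 to 10.9 CPM (log2 6.41, SE 0.18, adjusted p = 3.1e-28, edgeR) and CD3D, a T cell receptor subunit, from 0.0688 to 2.13 CPM (log2 4.85, SE 0.30). PTPRC, which marks leukocytes as a class, fell between low levels, from 0.301 to 0.102 CPM (log2 -1.57, SE 0.51, adjusted p = 0.0057). With CHIR it rose to 1.58 CPM (log2 2.36, SE 0.29). ITGA2B, a platelet integrin, fell with WT FOXP2 from 1.21 to 0.27 CPM (log2 -2.16, SE 0.29). The summed level of the list was 3.31 to 4.41 CPM in mock, 14.8 to 16.3 in WT FOXP2, 13.7 to 15.8 in dhelix FOXP2, 4.34 to 5.71 in CHIR, 20.5 to 23.0 in WT FOXP2 + CHIR and 15.8 to 18.6 in dhelix FOXP2 + CHIR libraries. HBB and PF4 had no count in any library, and the platelet genes GP9 and GP1BA had 1 and 6 counts in all.

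Of 6 lymphatic endothelial markers 3 were tested (PROX1, PDPN and FLT4, the last also in the VEGF list), and WT FOXP2 called 0 higher and 3 lower than mock. PROX1, the regulator of lymphatic identity, fell with WT FOXP2 (log2 -1.73, SE 0.20) and rose with CHIR from 15.4 to 53.7 CPM (log2 1.81, SE 0.16). PDPN, a lymphatic membrane glycoprotein, fell with WT FOXP2 by 0.74 on the log2 scale (SE 0.05), and FLT4, the VEGFC receptor, by 0.41 (SE 0.07).

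Of 12 pericyte and smooth muscle markers 11 were tested, with 5 higher and 5 lower for WT FOXP2 (median log2 change -0.80, beside -0.02). Single genes of this list changed strongly in opposite directions. MYOCD, a coactivator of smooth muscle genes, fell from 33.9 to 0.121 CPM with WT FOXP2 (log2 -8.10, SE 0.16) and to 0.0565 CPM with CHIR. ABCC9, a potassium channel subunit, rose from 0.522 to 42.9 CPM with WT FOXP2 (log2 6.28, SE 0.12) and to 12.2 CPM with CHIR. NOTCH3, a Notch receptor of mural cells, fell from 189 to 30.2 CPM (log2 -2.65, SE 0.08) and PDGFRB, the receptor for PDGF-B, from 67.2 to 20.6 CPM (log2 -1.71, SE 0.07) with WT FOXP2. The summed level of the list was 401 to 427 CPM in mock, 352 to 395 in WT FOXP2, 416 to 430 in dhelix FOXP2, 144 to 233 in CHIR, 354 to 383 in WT FOXP2 + CHIR and 389 to 460 in dhelix FOXP2 + CHIR libraries.

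Of 10 mesenchymal stromal markers 9 were tested, with 3 higher and 5 lower for WT FOXP2 (median log2 change -0.93, beside -0.02). The collagen genes COL1A1 and COL3A1 fell from 1308 to 219 CPM (log2 -2.58, SE 0.11) and from 72.7 to 4.30 CPM (log2 -4.07, SE 0.08), and PDGFRA, a PDGF receptor, from 71.1 to 4.90 CPM (log2 -3.88, SE 0.07). NT5E, the ectonucleotidase CD73, rose from 0.0163 to 1.34 CPM (adjusted p = 4.9e-15, edgeR). The summed level was 6080 to 6225 CPM in mock, 4775 to 4875 in WT FOXP2, 4147 to 4260 in dhelix FOXP2, 6738 to 7513 in CHIR, 2622 to 2815 in WT FOXP2 + CHIR and 2892 to 3375 in dhelix FOXP2 + CHIR libraries.

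Of 10 epithelial markers 8 were tested, with 3 higher and 5 lower for WT FOXP2 (median log2 change -0.45, beside -0.02). The keratin genes KRT14 and KRT5 fell from 24.8 to 0.242 CPM (log2 -6.63, SE 0.12) and from 0.622 to 0.0359 CPM (log2 -3.79, SE 0.46), and CLDN4, a tight junction protein, from 19.1 to 5.56 CPM (log2 -1.77, SE 0.10). CDH1, the epithelial cadherin, rose from 0.377 to 1.31 CPM (log2 1.81, SE 0.23). The summed level was 403 to 446 CPM in mock, 644 to 679 in WT FOXP2, 650 to 698 in dhelix FOXP2, 342 to 427 in CHIR, 551 to 617 in WT FOXP2 + CHIR and 581 to 628 in dhelix FOXP2 + CHIR libraries. Of 9 osteoblast markers 5 were tested, with 3 higher and 2 lower. RUNX2, the regulator of osteoblast fate, fell from 58.3 to 7.91 CPM with WT FOXP2 (log2 -2.89, SE 0.06), and ALPL, an osteoblast enzyme, rose from 3.19 to 20.6 CPM (log2 2.68, SE 0.12). SPP1, the matrix protein osteopontin, rose from 13.5 to 21.1 CPM (log2 0.64, SE 0.08), and PHEX, a peptidase of bone cells, fell from 3.11 to 1.19 CPM (log2 -1.35, SE 0.17). The summed level was 97.7 to 105 CPM in mock, 77.5 to 84.9 in WT FOXP2, 59.8 to 67.2 in dhelix FOXP2, 132 to 146 in CHIR, 82.3 to 90.0 in WT FOXP2 + CHIR and 73.3 to 78.5 in dhelix FOXP2 + CHIR libraries. The part of any of these lists in the endothelial gene results was not tested.

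For each tested member, the genes with the most similar profile over the 6 group means were found among 16734 genes, as the root mean square difference of log2 CPM after each gene was centred on its own mean. KDR had the closest match, GPR153, at 0.10 log2 units, followed by SHISA2 at 0.18 and NINJ1 at 0.19. ENG was closest to SBSN at 0.12 and then to OSCAR and ADAMTSL1, both at 0.15, and TEK to NXPH2 and PCAT7, both at 0.18, and RPS6KA5 at 0.20. TIE1 was closest to CES1P2 at 0.19, with the next gene, SNX18P24, at 0.39 and MARCH4 at 0.41. VWF had no gene nearer than RP11-323H21.3 at 0.28, then AC079586.1 at 0.30 and PLIN4 at 0.37, and CDH5 was closest to RP11-368M16.7 at 0.26, DNAH5 at 0.30 and RP11-1348G14.4 at 0.33. Some of the matched genes were near 0 in part of the groups, where the roughly 2 counts added before the log flatten a profile. RP11-323H21.3 averaged 0.0354 CPM in mock, 0.0125 in WT FOXP2 and 1.46 in dhelix FOXP2 + CHIR cells. CES1P2 averaged 0 CPM in mock and CHIR cells. The matches are descriptions over 6 points that share libraries and depth, with no test.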

How the data were processed

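RNA was sequenced from 30 U2OS libraries with a strand-marking mRNA kit and paired-end reads, per the labels' protocols. The deposited values are raw read counts per gene. STAR 2.6.1a, featureCounts (Subread), DESeq2 and hg19 are named in the submitters' processing notes, with no annotation or strand setting stated. Counts were tested with edgeR 4.0.16 in R 4.3.3 (filterByExpr, TMM, robust quasi-likelihood fit of 1 mean per group over all libraries). Adjusted p-values (Benjamini-Hochberg) cover 18485 genes, the SE is the log2 fold change over the square root of F, and replicates varied by 5.62% (edgeR's common biological coefficient of variation). The self-test used simulated counts. FLT1 was tested by exact permutation of log2 CPM with about 2 counts added. No replicates were duplicates: chi-square per gene between replicates was at least 1.39 and at most 34.8. Members and gene lists were chosen with earlier results of these data known. The 6 tested members are given in every comparison, and FLT1 in 9 pairs of groups. From each other list, up to 4 genes (6 for ligands and co-receptors and for other endothelial markers) with the largest range of group means, among tested genes with a group mean of at least 1 CPM, are named. Alternatives were DESeq2 1.42.0, its size factors, other filters, FOXP2 left out of library sizes, only the groups compared, a replicate block and libraries left out. Intervals and limits from counts cover counting error only.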

Additional observations from a re-analysis of the deposited data

Results flagged for a closer look

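A library lay far from the other 4 of its group in 2 of 41 combinations of gene and group, where chance alone gives about 1 in 20. VWF in dhelix FOXP2 + CHIR replicate 2 was at 46.9 CPM, with the others at 38.7 to 40.7, and TIE1 in mock replicate 2 was at 0.392 CPM, with the others at 0.198 to 0.243.

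The FOXP2 change differed between CHIR-treated and untreated cells by edgeR's interaction test for several members. With WT FOXP2 the differences were 3.96 for VWF, -1.42 for TIE1, 1.88 for TEK, 2.29 for KDR and -0.51 for ENG on the log2 scale. With dhelix FOXP2 they were 3.04 for VWF, -2.01 for TIE1, 2.28 for TEK and 2.49 for KDR. The effect of the helix deletion differed by -0.92 for VWF and -0.59 for TIE1.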

How the results depend on the processing

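The number of members called was within 1.5 times its original value with DESeq2, with DESeq2 size factors, with no filter, with FOXP2 left out of library sizes and with only the groups compared. A mean of at least 1 CPM left 3 members to test (VWF, TIE1 and ENG), with 2 called for CHIR against mock, 3 for WT FOXP2 and 3 for dhelix FOXP2 against mock, 3 for dhelix FOXP2 + CHIR against CHIR, 1 for dhelix against WT FOXP2 with CHIR, 3 for CHIR in WT and 3 in dhelix FOXP2 cells, and 3 and 2 for the interactions of WT and dhelix FOXP2 with CHIR. Fewer members called there follows from fewer tested. With each library left out, the counts were 4 to 5 for CHIR against mock, 5 to 6 for WT FOXP2 against mock and 4 to 5 for the dhelix interaction, and those of the other 9 comparisons did not change.

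The replicate number as a block gave the same counts in 12 of 12 comparisons, for example 5 members for CHIR against mock, 6 for WT FOXP2 against mock and 3 for dhelix against WT FOXP2. Deviations of same-numbered libraries from their group means correlated between -0.16 and 0.25, and those of differently numbered libraries between -0.23 and 0.28. For WT FOXP2 + CHIR against CHIR the highest values were 0.25 and 0.099. Whether same-numbered libraries share more than a number was not tested.

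The differences that changed sign, none of them called, are given as their range with each library left out. For CDH5, WT FOXP2 + CHIR against CHIR ran from -0.41 to 0.20 (above 0 without CHIR replicate 4 or WT FOXP2 + CHIR replicate 3 or 5), and the dhelix interaction from -0.51 to 0.021 (above 0 without CHIR replicate 4). For KDR, dhelix against WT FOXP2 ran from -0.34 to 0.44 (below 0 without dhelix replicate 5 or WT replicate 3), and was -0.33 without the 3 libraries that stood apart. The deletion interaction of KDR ran from -0.10 to 0.68 (below 0 without dhelix or WT replicate 4). For TIE1, dhelix against WT FOXP2 with CHIR ran from -0.13 to 0.018 (above 0 without dhelix FOXP2 + CHIR replicate 3 or WT FOXP2 + CHIR replicate 4), and was 0.0048 without the 3 libraries. The cause was not tested. Depth limits FLT1, CDH5 and KDR, with 141, 355 and 382 counts in all 30 libraries. For FLT1, edgeR with no filter gave an adjusted p of 0.025 for CHIR against mock, where the exact permutation p was 0.44. It also gave 0.0019 for WT FOXP2 + CHIR against CHIR and 0.025 for CHIR in dhelix FOXP2 cells. The permutation tests of these gave adjusted p-values of 0.071 and 0.057, so those calls depend on the method.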
